A study of Homo sapiens with 6 samples.

Results

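The transcription factor genes described here were GATA1, GATA2, ZFPM1, TAL1, LYL1, LMO2, LDB1, GFI1B, KLF1 and NFE2, which encode the factors that build erythroid and megakaryocytic gene programmes. They were taken by name, 10 genes of 60131 in the deposited RPKM table (reads scaled by gene length and library size) and the same 10 of 28395 in the deposited table of normalized read counts. RNA was measured by sequencing in K562, a human leukaemia line with erythroid and megakaryocytic features, carrying RUNX1 R320* (3 libraries) or wild-type RUNX1 (WT, 3 libraries). In both genotypes the cells were kept in RPMI-1640 with fetal bovine serum, and total RNA was taken with TRIzol. How the R320* cells were made, whether they are 1 clone, and whether the replicates are separate cultures were not given in the sources used here, so p-values cover no more than the spread between these 6 libraries, which may be technical. The question, from the study's own labels, was how transcription differs between K562 cells with R320* and with wild-type RUNX1.

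Erythroid and megakaryocytic cells share a core DNA-bound assembly. TAL1, paired with an E protein, binds E-box DNA, GATA1 or GATA2 binds a neighbouring GATA motif, and LMO2 and LDB1 bridge them, with LDB1 also joining distant assemblies to each other. GATA1 takes over sites from GATA2 as erythroid cells mature, FOG1 (the protein of ZFPM1) is its cofactor, and KLF1, GFI1B and NFE2 act with it at red cell and platelet genes. RUNX1 is a partner of this assembly at megakaryocytic and progenitor genes.

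Of the 10 factor genes, TAL1, LMO2, LDB1, KLF1 and GATA2 were higher in R320* cells in normalized counts. NFE2, GATA1, ZFPM1 and LYL1 were lower, and GFI1B did not pass the test. In RPKM, KLF1 (log2 fold change 0.046) and GATA2 (0.13) did not pass it either. The 4 largest differences were those of NFE2 (log2 fold change -0.996), TAL1 (0.58), GATA1 (-0.55) and ZFPM1 (-0.45) in normalized counts. The paired relatives moved apart: GATA2 was higher and GATA1 lower, and TAL1 was higher and LYL1 lower. Every member passed the filter for the test, limma on log2(normalized count + 1) with a Benjamini-Hochberg adjusted p below 0.05 for a call, and the lowest library held 1225 recovered reads for a member. Calls were common in this comparison: 53.7% of the 14299 genes tested were called, 26.4% higher and 27.4% lower, against 9 of the 10 members, 5 higher and 4 lower. The values of the genotypes did not overlap for 9 of the 10 members, the same 5 higher and 4 lower, against 59.8% of all genes tested (29.6% higher and 30.2% lower). The median absolute log2 fold change was 0.30 over the members and 0.27 over all genes tested, and 1 member against 24.2% of all genes reached a 1.5-fold difference. The median size of these changes was therefore near that of all genes tested, a set that also holds genes with far fewer reads than the members. With a filter of 50 normalized counts in 3 libraries, the all-gene median was 0.24, and 7191 of 12036 genes were called. In bulk RNA, fewer cells of a type and less RNA per cell cannot be told apart.

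**Figure D1:**
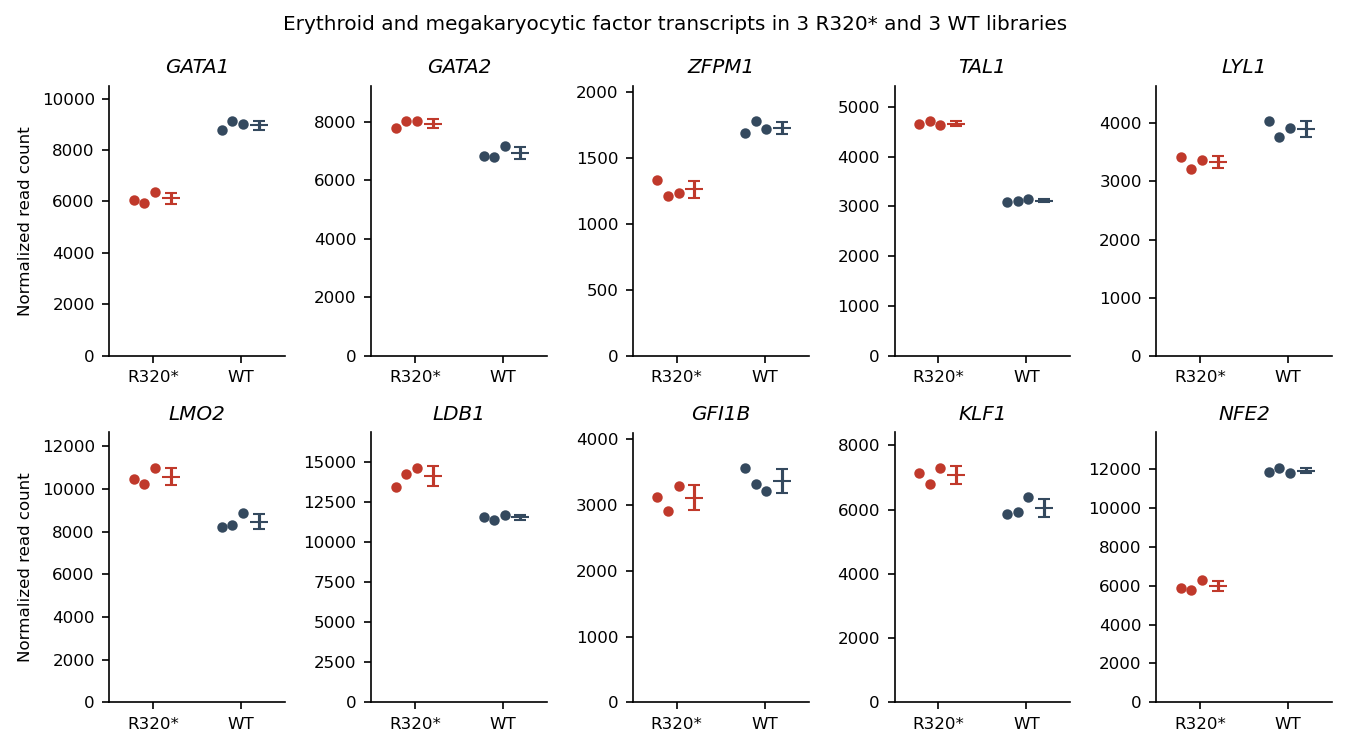
Normalized read count of each factor gene in each library (points, R320* left of WT; bars, mean and SD, n = 3 each). In 9 of the 10 genes the libraries of the genotypes do not overlap, and NFE2 averages 5972 in R320* and 11903 in WT.

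**Figure D2:**
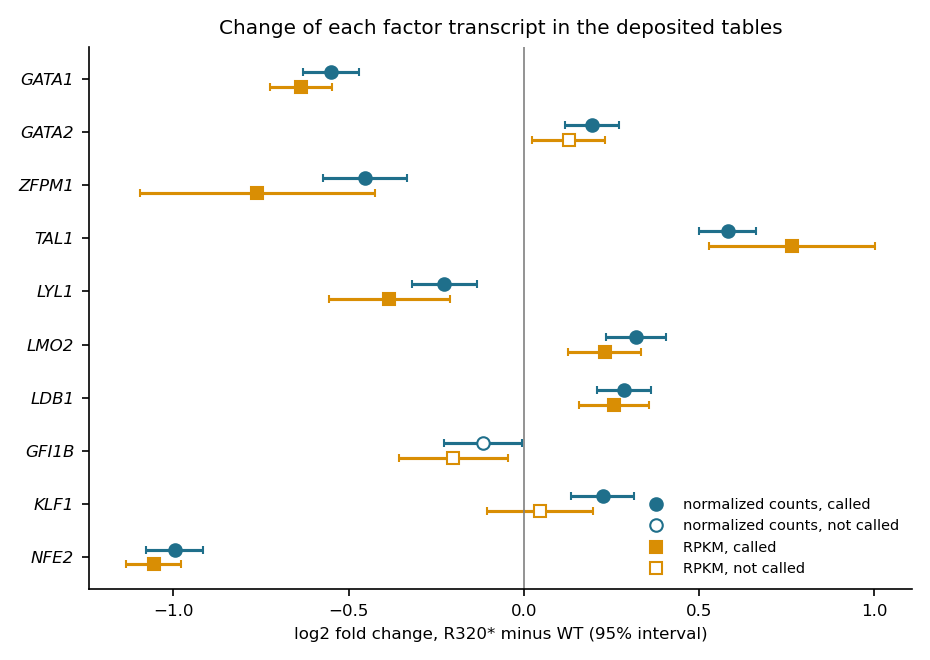
Log2 fold change of each factor gene, R320* minus WT, with its 95% confidence interval from limma, in normalized counts and in RPKM. NFE2 lies farthest below 0 in both tables and TAL1 farthest above it, while KLF1 and GATA2 are called higher in normalized counts alone.

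Promoter sequences are shown for both listed starts of TAL1, for LYL1 and KLF1, all of which hold matches to a GATA or RUNX core motif, and for GATA1 as a window with none. They were chosen with their matches seen. The promoter table used, from RefSeq (GRCh38.p14), held 11 starts for 8 of the 10 members, NFE2 and LMO2 not being in it, each as 250 bases before and 50 after the start. Capitals mark matches on either strand to GATAA, the core of the GATA factor motif, and to TGTGGT, the core of the RUNX motif. All 5 lie 5′ to 3′ on the gene's own strand, at chr1:47232286-47232585 and chr1:47231666-47231965 (TAL1, minus), chr19:12887152-12887451 (KLF1, minus), chr19:13102809-13103108 (LYL1, minus) and chrX:48786340-48786639 (GATA1, plus).
TAL1 first start: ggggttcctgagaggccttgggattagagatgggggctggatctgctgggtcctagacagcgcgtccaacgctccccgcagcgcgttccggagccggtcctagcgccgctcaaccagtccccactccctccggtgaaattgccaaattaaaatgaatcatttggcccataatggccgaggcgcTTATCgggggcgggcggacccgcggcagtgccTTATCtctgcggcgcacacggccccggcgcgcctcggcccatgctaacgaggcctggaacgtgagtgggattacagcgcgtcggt
TAL1 second start: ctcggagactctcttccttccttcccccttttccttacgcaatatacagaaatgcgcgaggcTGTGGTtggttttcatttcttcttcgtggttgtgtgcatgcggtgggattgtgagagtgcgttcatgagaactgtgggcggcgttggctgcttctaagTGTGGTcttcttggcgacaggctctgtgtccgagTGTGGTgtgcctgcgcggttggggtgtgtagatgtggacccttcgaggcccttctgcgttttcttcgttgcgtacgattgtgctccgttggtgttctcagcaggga
KLF1: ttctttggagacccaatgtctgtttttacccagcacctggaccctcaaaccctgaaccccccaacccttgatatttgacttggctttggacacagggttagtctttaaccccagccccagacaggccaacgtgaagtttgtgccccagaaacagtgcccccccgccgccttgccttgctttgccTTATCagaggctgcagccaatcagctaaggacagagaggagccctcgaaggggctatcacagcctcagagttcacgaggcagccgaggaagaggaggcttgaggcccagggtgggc
LYL1: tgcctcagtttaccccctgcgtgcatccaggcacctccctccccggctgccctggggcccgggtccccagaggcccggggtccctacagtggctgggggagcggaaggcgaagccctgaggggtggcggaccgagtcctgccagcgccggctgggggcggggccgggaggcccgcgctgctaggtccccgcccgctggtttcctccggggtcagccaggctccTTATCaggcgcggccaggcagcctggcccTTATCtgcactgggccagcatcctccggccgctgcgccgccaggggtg
GATA1: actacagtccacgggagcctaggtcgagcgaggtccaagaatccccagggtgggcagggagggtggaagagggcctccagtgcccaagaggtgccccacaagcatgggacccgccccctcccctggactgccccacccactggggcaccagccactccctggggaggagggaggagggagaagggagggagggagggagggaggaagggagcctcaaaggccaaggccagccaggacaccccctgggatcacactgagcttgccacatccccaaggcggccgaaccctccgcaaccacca
The first TAL1 window held 2 GATAA matches, beginning at -67 and -35 with the start base as 0, and the second held 3 TGTGGT matches, at -188, -90 and -56. KLF1 had 1 GATAA match at -66, and LYL1 had 2, at -27 and at 2. GATA1 had neither motif in this window, and no window held both motifs. Over all 11 windows, GATAA was in 4, GFI1B's second start (at -115) being the one not shown, and TGTGGT was in 1, while GATA2, LDB1 and ZFPM1 had neither. Of all 34943 promoters of this length in the table, 22.8% held GATAA and 4.82% held it 2 or more times, while 13.1% held TGTGGT and 0.126% held it 3 or more times. The E-box pattern CANNTG, which is its own reverse complement, was in 68.7% of promoters, and the CACCC-type pattern CCNCNCCC on either strand was in 56.1%. Among the members, GATA1, LDB1 and LYL1 had 4 CCNCNCCC matches each and no CANNTG, and ZFPM1 had 9 and no CANNTG. The GATA2 second window had 7, with 4 CANNTG matches. Of all promoters, 15.2% held CCNCNCCC 4 or more times. Overlapping matches were each counted, in members and in all promoters. Not all are therefore separate sites, as with those at -55, -51 and -49 in LDB1. The TAL1 first window had 1 CANNTG match at -93 and 2 of CCNCNCCC, at -130 and -62.

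Among the GATA factors and their cofactor, GATA1 and ZFPM1 fell and GATA2 rose. GATA1 (chromosome X, 48786590 to 48794311, GRCh38.p14) is the erythroid and megakaryocytic GATA factor. It had 6076, 5946 and 6351 normalized counts in R320* libraries, against 8774, 9119 and 8999 in WT libraries. All R320* libraries lay below all WT libraries, with a gap many times the spread within either genotype. The means were 6124 ± 207 in R320* and 8964 ± 175 in WT (SD, n = 3 each), a log2 fold change of -0.55 (standard error 0.04, 95% confidence interval -0.63 to -0.47, limma adjusted p = 2.83e-09), so GATA1 fell by 31.7%. In RPKM, GATA1 was at 127, 119 and 121 in R320*, against 188, 193 and 190 in WT (log2 fold change -0.64, limma adjusted p = 6.17e-05).

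GATA2 (chromosome 3, 128479422 to 128493201), the GATA factor of stem and progenitor cells, had 7776, 8020 and 8021 normalized counts in R320*, against 6846, 6813 and 7174 in WT. Its R320* libraries were all higher than its WT libraries. The log2 fold change was 0.19 (95% confidence interval 0.12 to 0.27, limma adjusted p = 2.79e-04), and in RPKM the difference did not pass the test (87.0 ± 2.93 in R320* and 79.6 ± 2.57 in WT, log2 fold change 0.13, limma adjusted p = 0.0664). The antisense RNA gene GATA2-AS1 overlaps GATA2 over 3999 bases, and was itself higher, with 1114 normalized counts in R320* and 917 in WT (log2 fold change 0.28, limma adjusted p = 0.00125). The use of strand in counting was not given, so reads of the overlap could belong to either gene.

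ZFPM1 (chromosome 16, 88451769 to 88537031), which encodes the GATA cofactor FOG1, had 1334, 1216 and 1238 normalized counts in R320*, against 1687, 1779 and 1717 in WT. The genotypes did not overlap, and ZFPM1 had the fewest counts of the 10 genes in each genotype. Its log2 fold change was -0.45 (standard error 0.06, limma adjusted p = 4.02e-06), and in RPKM it was -0.76 (5.86 ± 1.01 in R320* and 9.93 ± 0.946 in WT, limma adjusted p = 0.00708). The annotated antisense gene ZFPM1-AS1 lies over 18095 bases of ZFPM1 and was not analysed here.

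The balance between the GATA factors changed sides in normalized counts. The ratio of GATA2 to GATA1 was 1.28, 1.35 and 1.26 in R320* libraries, against 0.780, 0.747 and 0.797 in WT libraries. GATA2 therefore had more counts than GATA1 in every R320* library and fewer in every WT library. The log2 ratio was 0.74 higher in R320*, and an exact two-sided permutation test gave p = 0.1, the smallest it can give with 3 against 3 libraries. Per length, in RPKM, the ratio was 0.702, 0.737 and 0.693 in R320*, against 0.427, 0.397 and 0.430 in WT, so GATA1 stayed the more abundant per kilobase in both genotypes while the log2 ratio was 0.77 higher in R320* (exact permutation p = 0.1).

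Of the basic helix-loop-helix pair, TAL1 rose and LYL1 fell. TAL1 (chromosome 1, 47216290 to 47232335), which nucleates the complex on E-boxes, had 4651, 4710 and 4628 normalized counts in R320*, against 3090, 3116 and 3145 in WT. Libraries of a genotype lay within a few percent of each other, and the genotypes were far apart. The means were 4663 ± 42.2 in R320* and 3117 ± 27.5 in WT (SD, n = 3 each), 49.6% higher in R320*, with a log2 fold change of 0.58 (standard error 0.04, limma adjusted p = 2.25e-09). In RPKM, TAL1 was at 48.7, 54.0 and 43.7 in R320*, against 25.6, 30.4 and 30.0 in WT (log2 fold change 0.76, limma adjusted p = 0.0016).

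LYL1 (chromosome 19, 13099033 to 13102858), the TAL1 relative whose protein shares roles with TAL1 in mouse progenitors, had 3413, 3218 and 3369 normalized counts in R320*, against 4032, 3758 and 3913 in WT. All R320* libraries were below all WT libraries. The log2 fold change was -0.23 (standard error 0.04, limma adjusted p = 3.34e-04), and it was -0.38 in RPKM (limma adjusted p = 0.00765). The ratio of LYL1 to TAL1 was 0.734, 0.683 and 0.728 in R320*, against 1.31, 1.21 and 1.24 in WT, so in normalized counts TAL1 exceeded LYL1 in R320* libraries and LYL1 exceeded TAL1 in WT libraries. The log2 ratio differed by -0.81 (exact two-sided permutation p = 0.1, the smallest possible), and in RPKM, where the ratios were 1.24, 0.977 and 1.16 in R320*, against 2.90, 2.26 and 2.36 in WT, by -1.15.

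**Figure D3:**
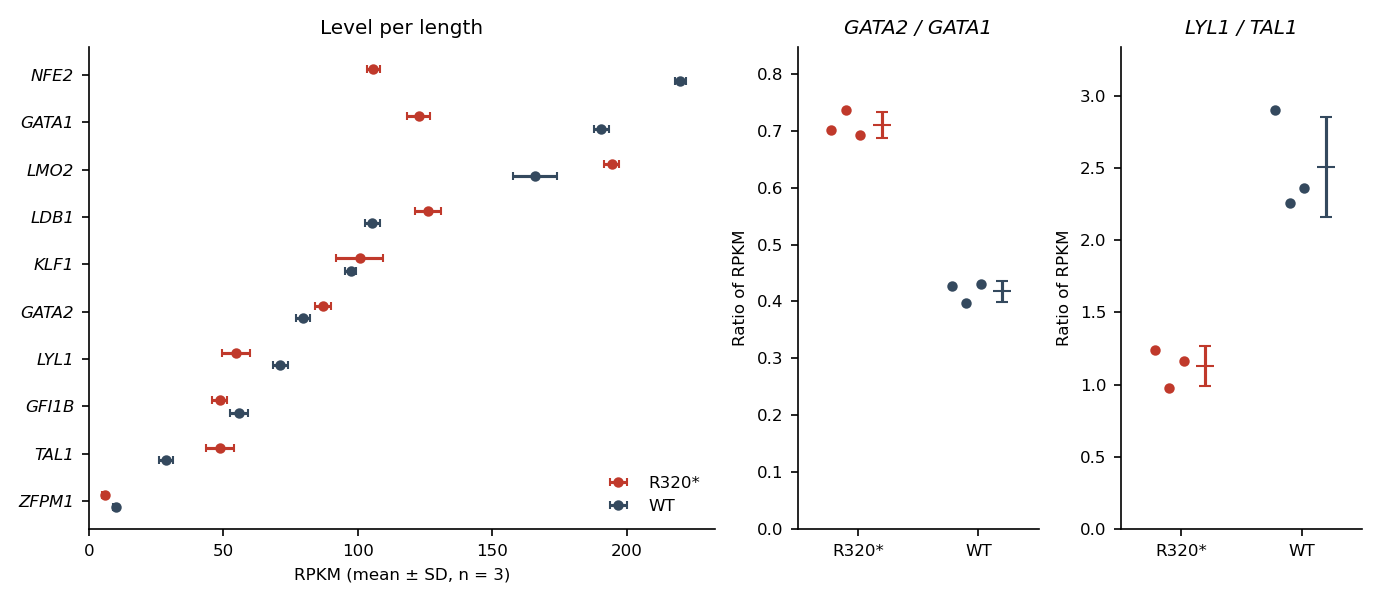
Left, mean RPKM of the 10 factor genes (bars, SD, n = 3 each) in R320* (red) and WT (dark blue); right, the RPKM ratios of GATA2 to GATA1 and of LYL1 to TAL1 in each library (points; bars, mean and SD). GATA2 to GATA1 is higher and LYL1 to TAL1 lower in all R320* libraries than in any WT library.

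Both bridging genes rose. LMO2 (chromosome 11, 33858576 to 33892076), the LIM protein that links TAL1 to the GATA factor, had 10490, 10227 and 11000 normalized counts in R320*, against 8218, 8318 and 8878 in WT. Its log2 fold change was 0.32 (standard error 0.04, limma adjusted p = 4.06e-06), and it was 0.23 in RPKM (194 ± 2.81 in R320* and 166 ± 8.25 in WT, limma adjusted p = 0.00743). LDB1 (chromosome 10, 102102088 to 102121442), which self-associates and ties enhancers to promoters, had 13399, 14204 and 14618 normalized counts in R320*, against 11567, 11380 and 11673 in WT. Neither bridging gene overlapped between genotypes, and LDB1 had the most counts of the 10 in R320*. The log2 fold change of LDB1 was 0.29 (standard error 0.04, limma adjusted p = 5.80e-06), and 0.26 in RPKM (126 ± 4.80 in R320* and 105 ± 2.75 in WT, limma adjusted p = 0.00429). PPRC1 overlaps LDB1 over 1554 bases and was also higher (2671 normalized counts in R320* and 2080 in WT, log2 fold change 0.36, limma adjusted p = 5.73e-06), so the origin of reads from that stretch is uncertain.

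The 3 lineage factors that work beside the core complex differed in direction. NFE2 (chromosome 12, 54292111 to 54301015) encodes the large subunit of NF-E2, which with a small MAF protein activates globin and platelet genes. It had 5855, 5782 and 6278 normalized counts in R320*, against 11838, 12061 and 11810 in WT. No R320* library came near a WT library. The means were 5972 ± 268 in R320* and 11903 ± 137 in WT (SD, n = 3 each), with a log2 fold change of -0.996 (standard error 0.04, 95% confidence interval -1.08 to -0.92, limma adjusted p = 2.17e-12), so NFE2 fell by 49.9%. In RPKM it was at 107, 103 and 107 in R320*, against 221, 221 and 217 in WT (log2 fold change -1.06, limma adjusted p = 4.77e-06).

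KLF1 (chromosome 19, 12884422 to 12887201), the erythroid CACCC-box activator, had 7142, 6785 and 7304 normalized counts in R320*, against 5875, 5913 and 6385 in WT. The genotypes did not overlap, and the log2 fold change was 0.22 (standard error 0.04, limma adjusted p = 2.86e-04). In RPKM they did overlap, at 111, 97.2 and 94.3 in R320*, against 96.4, 96.0 and 99.5 in WT, with a log2 fold change of 0.046 (95% confidence interval -0.10 to 0.20, limma adjusted p = 0.624) that turned to -0.023 (limma adjusted p = 0.707) without R320* replicate 1. Its difference thus rests on the table of normalized counts.

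GFI1B (chromosome 9, 132945531 to 132993434), a repressor that recruits LSD1 and CoREST, had 3124, 2914 and 3292 normalized counts in R320*, against 3569, 3322 and 3214 in WT. The highest R320* library lay above the lowest WT library. The log2 fold change was -0.12 (95% confidence interval -0.23 to -0.00, limma adjusted p = 0.0750), and it was -0.20 in RPKM (48.6 ± 2.97 in R320* and 55.8 ± 3.33 in WT, limma adjusted p = 0.0552). In normalized counts the adjusted p was 0.0223 without R320* replicate 3, 0.0455 without WT replicate 3 and up to 0.327 on leaving out another library.

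In the RPKM table as a whole, 3 members were called higher and 4 lower, against 15.1% and 16.8% of the 17769 genes tested, with 31.9% called in either direction. The genotypes did not overlap for 9 of the 10 members there, 4 higher and 5 lower, against 47% of all genes tested (22.9% higher and 24.1% lower). RPKM differences of at least 1.5-fold were seen for 4 members (NFE2, GATA1, TAL1 and ZFPM1) and for 24.6% of all genes.

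Per length, the order of the factors changed at its head. In R320* cells the mean RPKM ran from LMO2 (194) through LDB1 (126), GATA1 (122.6), NFE2 (106), KLF1 (101), GATA2 (87.0), LYL1 (54.7), TAL1 (48.8) and GFI1B (48.6) to ZFPM1 (5.86). In WT cells it ran from NFE2 (220) through GATA1 (191), LMO2 (166), LDB1 (105), KLF1 (97.3), GATA2 (79.6), LYL1 (71.2), GFI1B (55.8) and TAL1 (28.7) to ZFPM1 (9.93). NFE2 was thus at rank 4 in R320* and rank 1 in WT. In R320*, neighbours in this order whose library ranges overlapped were LDB1 and GATA1, NFE2 and KLF1, LYL1 and TAL1, and TAL1 and GFI1B, while in WT no neighbours overlapped. The summed RPKM of the 10 genes was 894 ± 31.0 in R320* and 1024 ± 9.93 in WT. Of this sum NFE2 held 11.8% in R320* and 21.5% in WT, and TAL1 held 5.46% in R320* and 2.80% in WT. The RPKM of all genes also summed lower in R320* (721735 to 764073 per library) than in WT (764578 to 786389). In normalized counts the sums of the 10 genes overlapped, at 63022 to 66099 in R320* and 65496 to 66906 in WT. In both genotypes 9 of the factors lay above at least 76.5% of the tested genes in RPKM, whereas ZFPM1 lay above 44.9% in R320* and 54.2% in WT.

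RUNX1, the gene of the genotype, had 5209, 5026 and 5261 normalized counts in R320*, against 2969, 2922 and 2908 in WT (log2 fold change 0.82, limma adjusted p = 4.40e-11); counts per gene do not show the R320* change itself. Reads assigned to genes came to 30064538 to 31306435 in R320* and 29058471 to 30595857 in WT libraries. Of 6 K562 markers (haemoglobin genes, TFRC and EPOR), 4 were called higher and 1 lower, with summed normalized counts of 126108 to 150192 in R320* and 103087 to 106947 in WT. Markers of other cells summed to 563 to 627 in R320* and 823 to 860 in WT for 7 lymphoid genes, mostly CD3D, with CD8A at 0. They summed to 25.8 to 39.2 in R320* and 60.7 to 88.7 in WT for 7 mature myeloid genes, with ELANE, S100A8 and S100A9 at 0. For 5 genes of fibroblasts and endothelium the sums were 2726 to 2960 in R320* and 3455 to 3554 in WT, mostly COL1A2, with CDH5 at 0. The part of these in the members' values was not tested.

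The position of a gene was set beside its change by taking the 50 nearest tested genes, 25 on each side. Around NFE2 the neighbours were lower too: over 2.80 Mb of chromosome 12, their median log2 fold change was -0.71, and 39 of 50 were called lower and 2 higher, against 27.4% and 26.4% of all genes. The genes on either side of NFE2, HNRNPA1 (-0.45) and COPZ1 (-0.65), were both lower, and 13 of the 50 lay below NFE2's own -0.996. The NFE2 value thus lay 0.29 below the local median. The part of position in the NFE2 value was not tested.

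Elsewhere the neighbours' medians lay nearer 0. They were -0.10 around GATA1, 0.13 around GATA2, 0.07 around ZFPM1, -0.03 around TAL1, 0.09 around LYL1, LMO2 and KLF1, 0.03 around LDB1 and 0.18 around GFI1B. TAL1 lay above 46 of its 50 neighbours and ZFPM1 below 44 of its 50. Of the genes adjoining TAL1, EFCAB14 was not called (-0.08, limma adjusted p = 0.129) and STIL was lower (-0.15, limma adjusted p = 0.00818). GATA1 lay below 38 of its 50 neighbours, and of the 50, 16 were called lower and 7 higher. Of the genes adjoining GATA1, GLOD5 was lower (-2.66, limma adjusted p = 5.90e-06) and HDAC6 was not called (0.02, limma adjusted p = 0.746). The 7 higher neighbours all lay on the GLOD5 side. On the HDAC6 side, the run of genes from TIMM17B (-0.56) to TFE3 (-0.69) was called lower throughout. The part of position in the GATA1 value was not tested. KLF1 and LYL1 sit close together and share 40 of their 50 neighbours, yet KLF1 was higher and LYL1 lower in normalized counts.

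**Figure D4:**
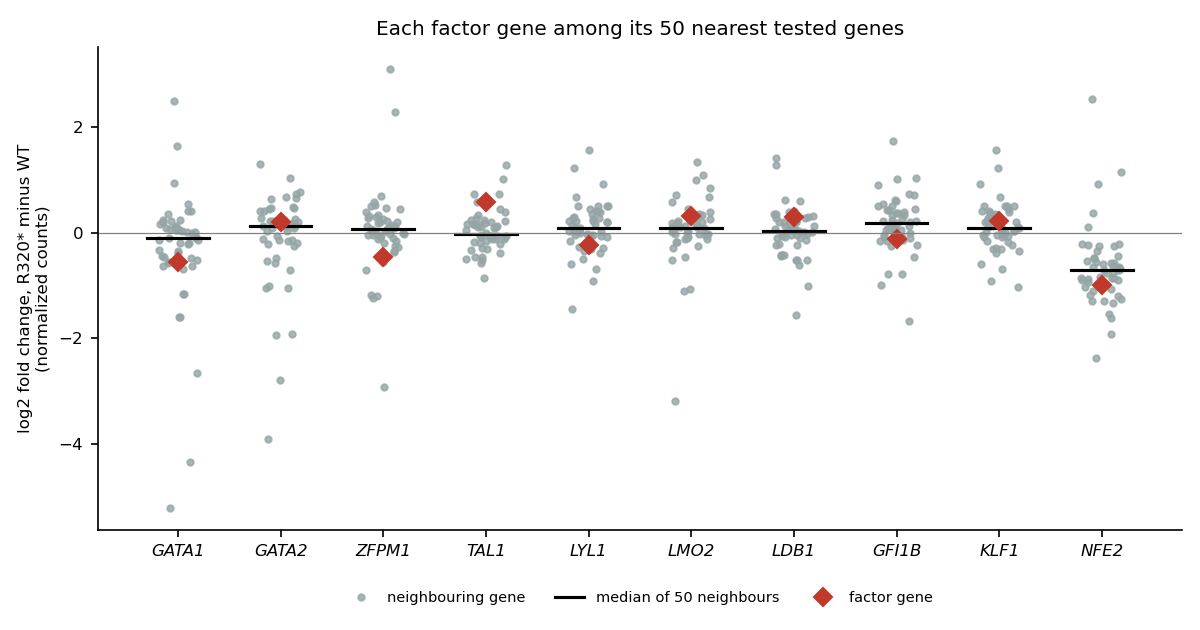
Log2 fold change in normalized counts, R320* minus WT, of the 50 tested genes nearest to each factor gene (grey), their median (line) and the factor gene (red diamond). The median around NFE2 is -0.71 and those around the other 9 genes lie between -0.10 and 0.18.

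The proteins that join these factors were followed in lists of partner genes, each described by its calls in normalized counts. Beside these, 26.4% of all genes tested were called higher and 27.4% lower in normalized counts, and 15.1% and 16.8% in RPKM. Of 7 E protein and ID genes, 2 were higher, 3 lower, TCF3 was not called (9232 ± 222 in R320* and 8766 ± 223 in WT) and ID4 had no reads. TCF12, an E protein that pairs with TAL1, fell to 2497 ± 25.7 normalized counts in R320*, against 3533 ± 77.3 in WT (log2 fold change -0.50, limma adjusted p = 3.98e-08). Of the ID proteins, which hold E proteins off DNA, ID3 fell (81.0 ± 15.0 in R320* and 307 ± 36.4 in WT, log2 fold change -1.92) while ID2 rose (453 ± 23.1 in R320* and 231 ± 19.9 in WT, 0.97). ID1, the ID gene with the most counts, also fell (654 ± 35.9 in R320* and 833 ± 10.9 in WT, -0.35, limma adjusted p = 6.61e-04). It was lower in RPKM too (-0.45, limma adjusted p = 0.00729). TCF4, another E protein, was higher by 0.25 on the log2 scale, a call lost in RPKM (0.22, limma adjusted p = 0.147). The list's median log2 fold change was -0.14, beside 0.01 for all genes tested.

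Of 7 LIM-domain and single-stranded-DNA-binding partner genes, 1 was higher, 3 were lower, 1 was not called and 2 were not tested, with a median log2 fold change of -0.34. SSBP4 rose (4560 ± 245 in R320* and 3423 ± 21.5 in WT, log2 fold change 0.41), and SSBP2, whose protein family stabilises LDB1, fell (545 ± 55.7 in R320* and 811 ± 14.9 in WT, -0.58), though not in RPKM, where it was not called. The LMO2 relative LMO4 fell by 0.34 on the log2 scale. LMO3 had 4.90, 0 and 3.81 normalized counts in R320*, against 79.5, 78.8 and 75.8 in WT, and it passed the filter through WT alone. Its call is therefore no support for a fall, yet LMO3 is counted among the 3 lower genes and in the list's median.

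Of 10 genes listed around corepressors, 4 were higher, 4 lower and 2 not called. The list holds genes of the ETO family and of the LSD1-CoREST complex, which GFI1B recruits, and GFI1, a relative of GFI1B. CBFA2T3 (ETO2), the corepressor bound to the TAL1 complex, had 3659, 3685 and 3770 normalized counts in R320*, against 6141, 5997 and 6018 in WT. It fell in every R320* library relative to every WT library (log2 fold change -0.71, limma adjusted p = 1.24e-10). The CoREST genes RCOR1 (1828 ± 65.2 in R320* and 2924 ± 122 in WT, -0.68) and RCOR2 (286 ± 48.9 in R320* and 446 ± 39.1 in WT, -0.65) also fell, while KDM1A, which encodes LSD1, rose (7354 ± 43.4 in R320* and 6503 ± 170 in WT, 0.18). Of these, the KDM1A call was not made in RPKM, where 1 list gene was higher and 4 were lower. RUNX1T1, the ETO gene, had 22.6, 11.9 and 19.1 normalized counts in R320*, against 0, 3.99 and 0 in WT, and it passed the filter through R320* alone. Its call is therefore no support for a rise, yet RUNX1T1 is counted among the 4 higher genes. GFI1 was also counted there (150 ± 20.8 in R320* and 80.1 ± 5.44 in WT, 0.89), a call lost in RPKM (0.37, limma adjusted p = 0.419).

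FOG1 binds the NuRD complex and CtBP, and of 13 genes of these, 5 were higher, 2 lower and 6 not called, with a median log2 fold change of 0.07. Those with the smallest adjusted p were MBD3 (4734 ± 249 in R320* and 3877 ± 94.3 in WT, 0.29), MTA2 (6868 ± 329 in R320* and 5721 ± 216 in WT, 0.26), CHD4 (16776 ± 284 in R320* and 18635 ± 692 in WT, -0.15) and GATAD2A (6653 ± 46.6 in R320* and 5994 ± 171 in WT, 0.15). All 4 were smaller changes than that of ZFPM1 itself. In RPKM, MTA2 (0.24) and CHD4 (-0.23) kept their calls, while MBD3 (0.13, limma adjusted p = 0.0706) and GATAD2A (0.025, limma adjusted p = 0.838) lost theirs. The list had 2 higher genes and 1 lower in RPKM, the other higher one being RBBP4.

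Of 8 partners and relatives of NFE2, 2 were higher, 3 lower and 3 not called, with a median log2 fold change of -0.10. BACH2, a repressor that competes for the same DNA with small MAF proteins, had 117 ± 4.69 normalized counts in R320* and 258 ± 32.0 in WT (log2 fold change -1.13, limma adjusted p = 7.81e-06). Of the small MAF genes, MAFK rose (1346 ± 145 in R320* and 1077 ± 29.9 in WT, 0.32) and MAFG fell (4590 ± 182 in R320* and 5117 ± 72.4 in WT, -0.16). NFE2L3, an NFE2 relative, was higher by 0.27. In RPKM, MAFG kept its call, while BACH2 (-0.82, limma adjusted p = 0.180), MAFK (0.24, limma adjusted p = 0.0655) and NFE2L3 (0.18, limma adjusted p = 0.0811) lost theirs, and 0 genes of this list were higher.

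Of 13 other GATA, TAL, FOG and KLF genes, 4 were higher, 4 lower, 3 not called and 2 not tested. GATA6, a GATA factor of endoderm and heart, rose to 186 ± 11.9 normalized counts in R320*, against 28.4 ± 8.57 in WT (log2 fold change 2.71, limma adjusted p = 1.18e-07), and GATA5 to 323 ± 40.2 in R320*, against 155 ± 3.28 in WT (1.05). These remained a small part of the GATA counts beside GATA1 and GATA2. ZFPM2, which encodes FOG2, fell (918 ± 34.2 in R320* and 1349 ± 94.3 in WT, -0.55), as did KLF10 (2274 ± 139 in R320* and 2905 ± 193 in WT, -0.35). RPKM gave 3 higher, 3 lower and 4 not called of 10 tested. The list's median log2 fold change was 0.23 in normalized counts and 0.04 in RPKM.

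Genes known as targets of the factors were counted by lineage. Of 23 erythroid targets, 11 were higher, 4 lower, 7 not called and 1 not tested, where 26.4% of all genes were higher and 27.4% lower. The list had a median log2 fold change of 0.17 beside 0.01 for all genes. Those with the smallest adjusted p were DMTN, a red cell membrane gene (259 ± 21.8 in R320* and 1200 ± 50.5 in WT, log2 fold change -2.21), SLC4A1, the band 3 anion exchanger (212 ± 18.0 in R320* and 703 ± 21.3 in WT, -1.72), ANK1, erythroid ankyrin (12555 ± 188 in R320* and 8780 ± 257 in WT, 0.52), and PPOX of haem synthesis (1507 ± 118 in R320* and 819 ± 15.4 in WT, 0.88). Membrane genes were thus found on both sides. Near-identical copies (HBG1 and HBG2, HBA1 and HBA2) are uncertain, since reads could be split between them. RPKM gave 10 higher and 6 lower of 21 tested, beside 15.1% and 16.8% of all genes.

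Of 14 megakaryocyte targets, 0 were higher, 4 lower, 3 not called and 7 not tested for low counts, where 27.4% of all genes were lower. TUBB1, the platelet tubulin that depends on NF-E2 in mouse, had 287, 318 and 271 normalized counts in R320*, against 1807, 1568 and 1617 in WT (log2 fold change -2.51, limma adjusted p = 4.51e-13). RAB27B, a granule GTPase gene that also depends on NF-E2 in mouse, had 84.3, 68.5 and 82.0 in R320*, against 749, 728 and 736 in WT (-3.23, limma adjusted p = 3.31e-12). Both were far lower in every R320* library. The integrin gene ITGA2B (428 ± 58.6 in R320* and 1343 ± 15.6 in WT, -1.66) and THBS1 (9.80 ± 5.26 in R320* and 490 ± 42.7 in WT) completed the called genes. The THBS1 mean in R320* lay below 10, so the gene passed the filter only with its WT libraries. Its call is therefore no support for a fall, yet THBS1 is counted among the 4 lower genes. TBXAS1, thromboxane synthase, was not called (156 ± 19.5 in R320* and 133 ± 31.3 in WT). The listed genes were not sorted by dependence on NF-E2, and the part of NFE2 in their values was not tested. RPKM gave 0 higher and 5 lower of 8 tested, beside 16.8% lower of all genes. The fifth of these, the platelet glycoprotein gene GP1BB, had 93.6 ± 15.6 RPKM in R320* and 183 ± 7.20 in WT, but no read in the count table, so a count of 0 there need not mean that a gene is silent.

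**Figure D5:**
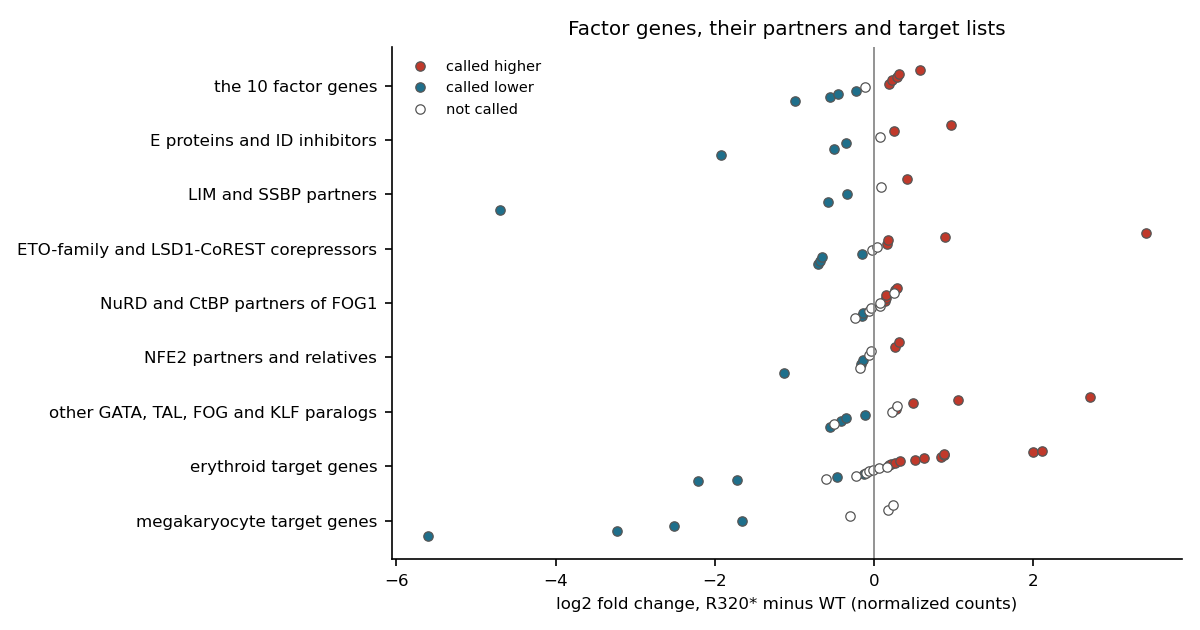
Log2 fold change in normalized counts, R320* minus WT, of each tested factor gene and each tested gene of the partner and target lists (red, called higher; blue, called lower; open, not called). Called genes lie on both sides of 0 in each list except the megakaryocyte targets, where the 4 called genes are lower.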

How the data were processed

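RNA of 6 K562 libraries, 3 R320* and 3 WT, was sequenced. The submitters' processing notes name hg38 and the tools DESeq2, featureCounts, HISAT2 and Salmon. Versions, the tool behind each table and strand use were not given in the sources used here. The authors' deposited signal values are read counts divided by 1 factor per library, so that 1 read is worth 0.953 to 1.05 normalized counts and 100% of values gave whole reads (tolerance 1e-06). The deposited RPKM values, named so by the authors, sum to 721735 to 786389 per library, and an exact 0 there can be a failed estimate. Replicates differed by more than counting error. Entrez identifiers were named from RefSeq GRCh38.p14 (27745 of 28395 matched), which also gave positions and promoters.

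With limma 3.58.1 (R 4.3.3, intensity trend), log2(normalized count + 1) was fitted where 3 or more libraries reached 10, and log2(RPKM + 0.1) where 3 or more reached 0.5. RPKM fold changes are on that scale and understate low genes. P-values were adjusted over all genes tested. edgeR 4.0.16 and DESeq2 1.42.0 were run on recovered reads (7660 and 7470 genes called, against 7685), beside other scalings, filters and pseudocounts. The scripts were tested on simulated data. All members are named, with up to 4 genes of each list by smallest adjusted p and any needed beside a member. TCF3, ID1, ID4, RUNX1T1, GFI1, TBXAS1, RBBP4 and GP1BB were chosen after their values were seen. Genes alike in pattern were to be named for a called member with a log2 difference of 1 or more in size, which 0 members reached in normalized counts. Of the erythroid lists, 1 gene is not reported here. Members and lists were chosen with earlier results of these data known.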

Additional observations from a re-analysis of the deposited data

How the results depend on the processing

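In normalized counts, the 9 called members kept their direction and call under each of 17 alternatives (pseudocounts, filters, TMM, upper quartile and quantile scaling, no intensity trend, edgeR, DESeq2, the replicate block and leaving out each library), and GFI1B gained a call without R320* replicate 3 or WT replicate 3. In RPKM, the 7 called members kept theirs under 12 alternatives. GATA2 gained a call after centring each library's RPKM, an alternative chosen after seeing the data (log2 fold change 0.17, limma adjusted p = 0.0287), and GFI1B without R320* replicate 1 (adjusted p = 0.0410). KLF1 in RPKM ranged from -0.023 to 0.092 on leaving out each library, reversed at -0.023 without R320* replicate 1. The cause was not tested.

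Leaving out each library gave 6809 to 7251 called genes in normalized counts and 4332 to 4995 in RPKM. Replicate numbers did not pair the libraries (correlation of same-numbered deviations -0.003 to 0.032, with 1 of 3 R320* libraries closest to its own number). With the replicate block 7854 genes were called in normalized counts, against 7685, and 4865 in RPKM, against 5675, and GFI1B gained a call in RPKM (adjusted p = 0.0432). In RPKM each partner list had fewer calls, while the target lists had more. There were 1 higher E protein or ID gene (2 in normalized counts) and 1 higher gene of the corepressor list (4). There were also 2 higher and 1 lower NuRD or CtBP gene (5 and 2), and 0 higher and 1 lower NFE2 partner (2 and 3). The LIM-domain list had 1 higher and 2 lower (1 and 3). The other GATA, TAL, FOG and KLF genes had 3 higher and 3 lower (4 and 4). The erythroid targets had 10 higher and 6 lower in RPKM (11 and 4), and the megakaryocyte targets 5 lower (4). The cause was not tested. The lowest member value was 1225 reads, and 7 megakaryocyte targets did not pass the filter, 3 of them with no read in any library.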
